A study of Mus musculus with 686 samples.

Results

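The let-7 family and its close relative miR-98 are among the most abundant related miRNAs in adult mouse tissues. These 10 mature strands were followed here, 10 of the 1964 rows of the miRNA count table, chosen by name: mmu-let-7a-5p, mmu-let-7b-5p, mmu-let-7c-5p, mmu-let-7d-5p, mmu-let-7e-5p, mmu-let-7f-5p, mmu-let-7g-5p, mmu-let-7i-5p, mmu-let-7j and mmu-miR-98-5p. The study profiled small RNAs from female BALB/cAnNTac mice in 686 libraries of 13 tissues, which were brain, heart, lung, liver, kidney, spleen, thymus, pancreas, diaphragm and gonadal (GAT), mesenteric (MAT), subcutaneous (SCAT) and brown adipose tissue (BAT). Mice aged 3 or 8 months flew to the International Space Station (FL), lived on the ground in matched habitats (HGC) or lived in standard vivarium cages (VGC). In the live animal return arm (LAR, 348 libraries: 114 FL, 113 HGC, 121 VGC) the FL mice spent 39.5 days on the station and were dissected 2 to 4 days after splashdown, with tissues snap frozen. In the ISS terminal arm (TERM, 338 libraries: 115 FL, 114 HGC, 109 VGC) the mice were killed 22 to 24 days after launch, the spleen went into a preservative and the rest of the carcass was frozen whole and dissected after thawing. A tissue, arm and extraction group held 2 to 10 libraries, each from a separate mouse, and all mice were of 1 strain and sex.

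Members of the let-7 family repress messenger RNAs that carry sites matching the seed, bases 2 to 8 of the mature strand. The family was first described as a regulator of developmental timing in worms, it accumulates as mammalian cells differentiate, and LIN28 proteins hold it low in embryonic and stem-like cells by blocking processing of its precursors. Well-known targets include Hmga2 and Lin28a. Because the members other than let-7j share a seed and overlap in targets, the summed family and its composition are both of interest in a tissue.

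The mature sequences are printed because the members differ by so few bases that their identity rests on them. All 10 were found in the RefSeq table of build GRCm38.p6, as were 1673 of the 1964 rows, and capitals mark the seed.
let-7a-5p: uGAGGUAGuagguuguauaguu
let-7c-5p: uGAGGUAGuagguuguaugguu
let-7b-5p: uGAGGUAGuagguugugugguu
let-7e-5p: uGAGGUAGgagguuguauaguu
let-7f-5p: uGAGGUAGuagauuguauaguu
let-7d-5p: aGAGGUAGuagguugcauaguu
let-7g-5p: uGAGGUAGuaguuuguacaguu
let-7i-5p: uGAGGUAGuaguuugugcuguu
miR-98-5p: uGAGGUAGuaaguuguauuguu
let-7j: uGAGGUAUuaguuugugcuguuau

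Of the 10 strands, 9 strands carried the seed GAGGUAG, and let-7j carried GAGGUAU. Counting positions from 1 at the 5′ end and writing the base of let-7a first, let-7c (A19G), let-7e (U9G) and let-7f (G12A) each differed from let-7a at 1 position, and let-7b differed from let-7a at A17G and A19G and from let-7c at A17G alone. The sequence of let-7j was that of let-7i with G8U, which falls inside the seed, and with 2 extra bases at the 3′ end. Values of such near-identical strands are uncertain to the extent that reads were split between them. The deposited values of let-7a, let-7c and let-7f held fractions of a read in 342, 347 and 337 libraries, and the other 7 members held whole reads throughout.

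The genome holds several members more than once and in groups (coordinates in GRCm38.p6, mature strands). On chromosome 13 the strands of let-7a-1, let-7f-1 and let-7d lie on the minus strand within 2183 bases (chr13:48536078-48538260), in exons of the long non-coding RNA 6720427I07Rik. On chromosome 15, let-7c-2 and let-7b lie 731 bases from end to end in exons of Lncppara (chr15:85706616-85707346, plus strand). On the X chromosome, let-7f-2 and miR-98 share an intron of the ubiquitin ligase gene Huwe1 (chrX:151912353-151913250, plus strand). The strand of let-7c-1 lies in an intron of Mir99ahg (chr16:77599672-77599693) beside miR-99a, let-7e in an intron of Spaca6 (chr17:17830366-17830387) beside miR-99b and miR-125a, let-7g in an intron of Wdr82 (chr9:106178846-106178867), and let-7i in an exon of D630033A02Rik (chr10:122985698-122985719, minus strand). No annotated gene of the same strand covered let-7j (chr3:140028281-140028304). For let-7a-2 the table gave the hairpin only (chr9:41536716-41536811), in an intron of 3110039I08Rik and near miR-100 and miR-125b-1.

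Depth was ample for every member. Libraries held 0.181 M to 30.5 M miRNA counts (M, 1000000 counts; median 3.88 M), of which 0.0529 M to 10.1 M (median 0.842 M) were family counts, and the lowest count of any member in any library was 171. The profile of the other miRNAs, with the 10 members removed, placed 162 of the 686 libraries closest to the average of another tissue than their label, including 43 of 57 MAT, 20 of 60 BAT and 19 of 59 diaphragm libraries and 0 of 25 brain libraries. Of these, 117 were among 168 libraries of 11 pools, the pool of each library being read from the study's sample sheet and the 11 being those in which over 1 in 3 libraries were so placed. Liver marker miR-122 had a median of 338317 counts per 1000000 miRNA counts (CPM) in liver libraries and brain marker miR-124 of 179182 CPM in brain libraries. The lowest liver library held 8.59 CPM of miR-122 and the highest diaphragm library 403147 CPM.

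The family made up a median of 22.9% of all miRNA counts and between 5.77% and 63.2% in single libraries. GAT had the highest median share, 31.8% (15.5% to 63.2%, n = 60), followed by SCAT at 29.3% (9.14% to 53.1%, n = 58) and kidney at 28.4% (11.7% to 48.3%, n = 57). Heart was lowest at 17.0% (9.46% to 30.8%, n = 50), with liver at 17.9% (9.01% to 30.1%, n = 58) and thymus at 19.6% (8.23% to 50.6%, n = 58) next. The range over libraries of any tissue overlapped that of every other, so the order describes medians. Without the 11 pools the median was 34.1% in GAT (n = 49) and 16.1% in heart (n = 40).

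**Figure D1:**
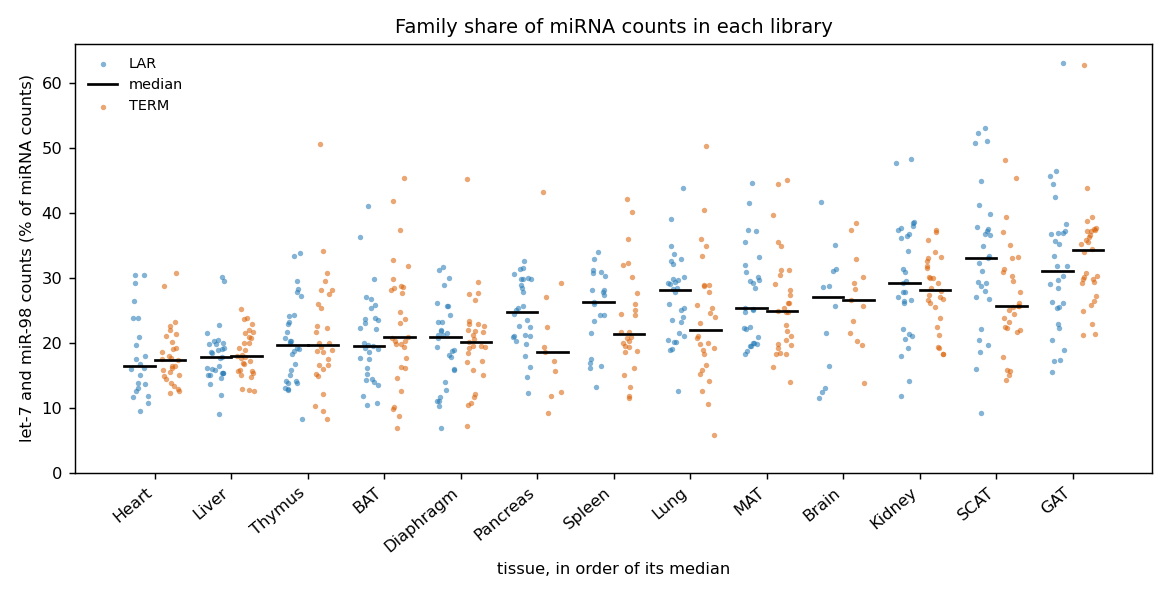
Share of miRNA counts on the 10 let-7 and miR-98 strands in each of the 686 libraries (vertical axis, %), by tissue in order of the median and split by extraction (blue LAR, orange TERM); black bars are medians. Medians climb from 17.0% in heart to 31.8% in GAT, while single libraries of most tissues spread over more than that distance.

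The choice of denominator reordered the tissues. As reads per 1000000 counts of 7 RNA classes (rpmm; miRNA, tRNA, rRNA and 4 others), the family was highest in lung, with a median of 33710 rpmm (3544 to 73649), and in kidney, with 27077 rpmm (2491 to 83899). It was lowest in pancreas at 5202 rpmm (1091 to 16473), MAT at 6972 rpmm and GAT at 7110 rpmm (1313 to 32775). GAT thus had the highest share of miRNA counts and one of the lowest shares of all small RNA counts. In GAT libraries miRNAs were a median of 2.22% of the 7 classes and tRNA fragments 75.9%, against 14.5% and 22.3% in lung. In bulk tissue, fewer cells that hold a miRNA and less of it per cell cannot be told apart.

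A few members carried most of the family. The 3 most abundant members of a library held a median of 66.1% of its family counts (48.9% to 84.1%). The largest single member was let-7c in 494 libraries, let-7a in 138, let-7f in 28, let-7b in 20, let-7g in 4 and let-7i in 2. The leader varied by tissue: let-7a led in 46 of 58 liver and 29 of 47 spleen libraries, whereas let-7c led in all 25 brain, 54 of 58 lung and 52 of 58 SCAT libraries.

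**Figure D2:**
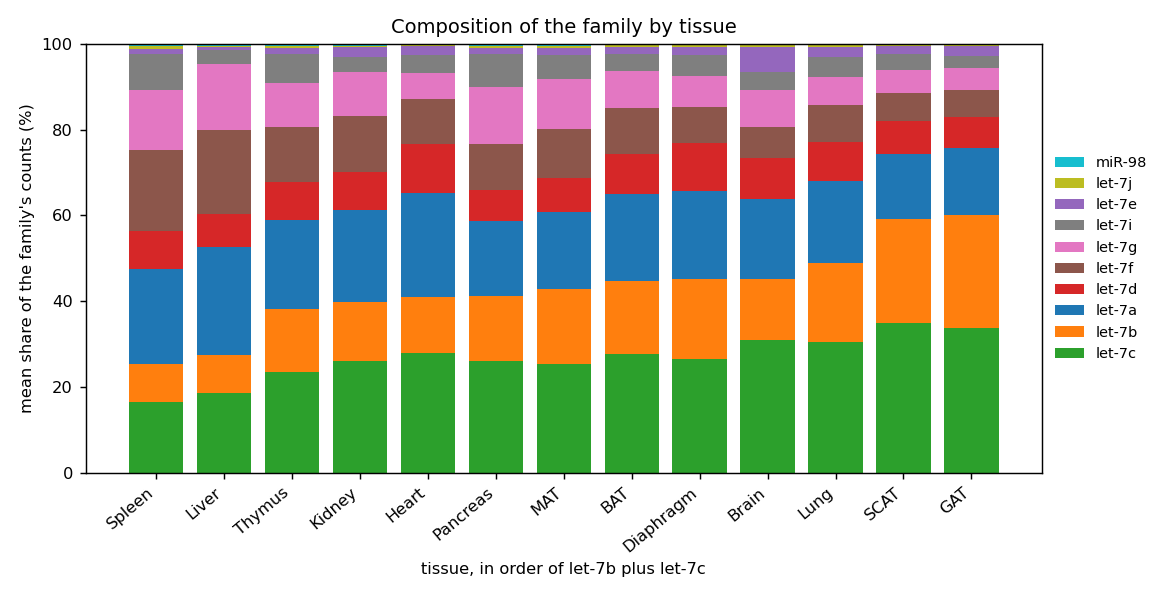
Mean share of family counts on each of the 10 members (stacked bars, %) in the 13 tissues, ordered by let-7b plus let-7c. At the left, spleen and liver are spread over let-7a, let-7f, let-7g and let-7c; at the right, let-7c and let-7b fill more than any other members of SCAT and GAT, whose median shares are 35.8% and 24.3%, and 34.3% and 26.8%.

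A wide contrast in composition lay between the let-7b and let-7c pair, the 2 strands encoded together on chromosome 15, and the let-7f and let-7g strands. The counts of let-7b plus let-7c over those of let-7f plus let-7g gave a median ratio of 6.55 in GAT (quartiles 4.55 and 7.94) and 5.58 in SCAT (3.90 and 6.99). In liver it was 0.784 (0.599 and 0.976) and in spleen 0.611 (0.494 and 0.913). This ratio is taken within a library and so depends on no scaling. Over all libraries the extremes of these tissues overlapped (GAT 0.726 to 13.1, spleen 0.294 to 5.99), and outside the 11 pools they did not (GAT 3.05 to 10.8, n = 49; SCAT 2.82 to 13.8, n = 44; liver 0.266 to 1.60, n = 50; spleen 0.294 to 1.18, n = 34).

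The span of the members' medians over tissues depended on the denominator and, in CPM, differed between members. The median CPM of let-7a, the founding mammalian member, ran only from 41812 in thymus to 61315 in kidney, 1.47-fold, and that of let-7d from 13480 in liver to 24326 in kidney, 1.80-fold. The widest span was that of let-7e, from 1009 CPM in liver to 13649 CPM in brain, 13.5-fold. Of the abundant members, let-7b spanned 5.71-fold (liver 15003, GAT 85617), let-7c 3.35-fold (liver 31719, GAT 106389), let-7g 3.47-fold (heart 9210, spleen 31959) and let-7f 2.70-fold (diaphragm 16138, spleen 43645). The remaining 3 had their highest medians in spleen or kidney: let-7i 18952 CPM in spleen against 4863 in liver (3.90-fold), let-7j 1430 against 405 in the same 2 tissues (3.53-fold), and miR-98 1100 in kidney against 425 in heart (2.58-fold). In rpmm every member spanned more than 6-fold, from 6.28-fold for let-7a (lung over GAT) to 12.7-fold for let-7e (brain over pancreas).

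**Figure D3:**
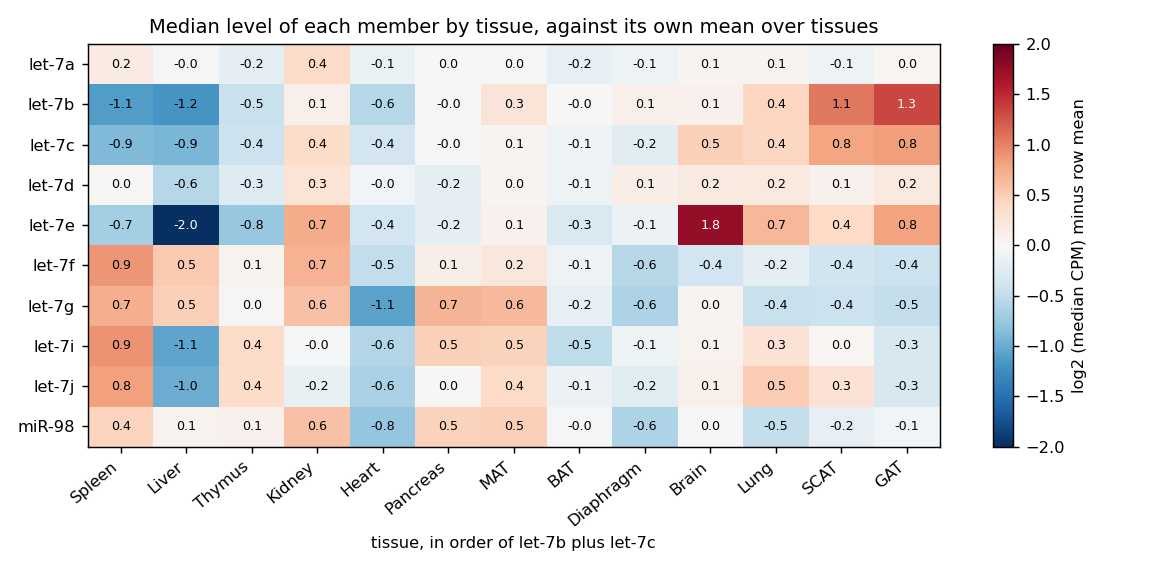
Heat map of the median level of each member (rows) in each tissue (columns, ordered as in the bars of family composition), as log2 of the median CPM minus the row's mean over the 13 tissues. The let-7b and let-7c rows darken to red towards SCAT and GAT, the let-7f and let-7g rows towards spleen and liver, and let-7e has a blue cell in liver and a red one in brain.

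The median level of let-7e was highest in brain and lowest in liver. Its share of the family was a median of 5.60% in brain libraries (3.28% to 10.1%, n = 25) and 0.586% in liver (0.392% to 2.36%, n = 58), with no overlap of the ranges. In one edgeR quasi-likelihood fit over all 686 libraries, scaled by trimmed mean of M values (TMM) and with extraction, arm and age as terms, let-7e was 2.73 ± 0.17 higher in brain than in liver on the log2 scale (SE; Benjamini-Hochberg adjusted p = 8.09e-50) and 1.09 ± 0.17 higher than in GAT, the tissue with the next highest median (adjusted p = 5.40e-10). The brain and liver difference was 3.50 when scaled to the miRNA total and 3.45 when scaled to the 7 classes. At the other end, let-7f was 1.80 ± 0.19 lower in brain than in liver (adjusted p = 1.04e-19).

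Over all 78 pairs of tissues and 10 members, 502 of 780 differences passed an adjusted p of 0.05, which is 64.4% against 67.9% of all miRNA and pair combinations tested. The members' share was thus close to the background. The count ran from 41 of 78 pairs for let-7a and 44 for let-7i to 58 for let-7g and 59 for let-7e. For let-7g the widest of its 78 differences was 1.77 ± 0.12 lower in GAT than in liver (adjusted p = 3.79e-44), and for let-7b it was 1.75 ± 0.16 higher in GAT than in spleen (adjusted p = 2.62e-25). Of the called differences, 71 had the other sign when scaled to the miRNA total, 28 of them called in that direction, and 115 when scaled to the 7 classes, 68 of them called. One of these was let-7b in GAT and spleen, at 1.92 with the miRNA total and −0.08 with the 7 classes, whereas let-7g in GAT and liver was −0.80 and −2.25.

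Neighbours in the order of tissue medians often did not differ beyond their spread. For let-7a, 5 of the 12 neighbouring pairs were called, and kidney, spleen, lung, brain and GAT, its 5 highest tissues, formed a run with no call between neighbours. Of its 5 calls, BAT to heart, SCAT to liver and pancreas to GAT ran with the order of medians (0.33, 0.89 and 0.30 under TMM), while diaphragm to SCAT and liver to MAT ran against it (−0.36 and −0.99). Over all 10 members 53 of 120 neighbouring pairs were called, 44.2% beside 65.3% of all miRNA tests in the same pairs of tissues, and 32 ran with the order of CPM medians and 21 against it. The pairs were picked as adjacent in the members' own medians, so the lower share is set by that choice and nothing is read from it. For let-7b, 6 of 12 pairs were called (1 against the order), and its top pair, SCAT and GAT, was not (difference 0.09, adjusted p = 0.644). For let-7e, brain over GAT was called, and GAT, kidney, lung and SCAT below them formed a run with no call. Among the others, 6 of 12 neighbours were called for let-7c (2 against the order), 8 for let-7d (4 against), 4 for let-7f (3 against), 6 for let-7g (2 against), 3 for let-7i (1 against), 6 for let-7j (3 against) and 2 for miR-98 (1 against).

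Members encoded together did not all share their order of tissues. Over the 13 tissue medians of log2 CPM, let-7b and let-7c correlated with r = 0.94, let-7i and let-7j with r = 0.92, let-7g and miR-98 with r = 0.94 and let-7f and miR-98, the Huwe1 pair, with r = 0.78. On the chromosome 13 cluster, let-7a and let-7d gave r = 0.49, let-7a and let-7f r = 0.57 and let-7d and let-7f r = −0.29. Both let-7a and let-7f have a second locus elsewhere, and the near-identical pairs are those whose counts are least separable. These 13 points share libraries, depth and the miRNA total, and each r is a description.

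Companion miRNAs from the same transcripts gave a similar picture. The strand let-7e followed miR-125a-5p (r = 0.97 over 13 tissues) and miR-99b-5p (r = 0.91), its neighbours within an intron of Spaca6. Levels were much unequal: in brain, the median was 240 CPM for miR-125a-5p and 1138 CPM for miR-99b-5p beside 13649 CPM for let-7e. For let-7c and miR-99a-5p r was 0.80, and for let-7a and miR-100-5p it was −0.31. Outside the family, the 5 miRNAs whose tissue order was most like that of the summed family, among 337 with at least 100 CPM in some tissue, were miR-501-3p (r = 0.88), miR-497a-5p (0.82), miR-324-3p (0.78), miR-125a-3p (0.78) and miR-195a-5p (0.77). Of these, miR-125a-3p is itself the opposite strand of the let-7e companion. Without the 11 pools miR-1981-5p replaced miR-324-3p among the 5.

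Opposite strands were scarce. The strand let-7i-3p made up a median of 4.56% of the let-7i hairpin's counts (0.285% to 22.6%) and let-7d-3p 1.04% of the let-7d hairpin's. Each of the other 10 opposite strands had a median, over all libraries, under 0.5% of the counts of both strands. By tissue the highest of these medians was 0.757%, for let-7c-2-3p in liver. For let-7a, let-7c and let-7f the 5p count pools more than 1 locus. The rows of let-7a-1-3p and let-7c-2-3p have the same sequence and held equal counts in 552 of the 686 libraries, differing by at most 5 counts, so that they are 1 measurement. The level of let-7j was a median of 7.92% of that of let-7i (2.14% to 20.0%). Of the other 2 strands in the reference table with the let-7a seed, let-7k had a median of 3.59 CPM and miR-1961 was at 0 in 450 libraries.

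By the paper FL vs. HGC primarily captures spaceflight, but only FL mice underwent launch and, in LAR, return. FL vs. VGC added the habitat, which HGC vs. VGC addressed without flight. In LAR, 0 of 130 member and tissue tests passed the adjusted p of 0.05 in FL vs. HGC (edgeR quasi-likelihood; DESeq2 0), against 1.67% of all miRNA tests with edgeR, and 1 had an unadjusted p under 0.05, 0.769% against 12.2% of all. In FL vs. VGC it was 0 of 130 (DESeq2 0; edgeR background 0.663%), and 14 were under the unadjusted threshold, all lower in FL, 10.8% as over all miRNA tests (10.8%). In HGC vs. VGC it was 0 of 130 (5 unadjusted, 3.85% against 11.9%; DESeq2 0; edgeR background 0.187%). In TERM, FL vs. HGC called 0 of 130 (7 unadjusted, 5.38% against 8.90%; edgeR background 0.492%), and DESeq2 called 1, against 1.48% of its own tests. FL vs. VGC called 0 of 130 (7 unadjusted, 5.38% against 9.32%; DESeq2 0; edgeR background 0.666%) and HGC vs. VGC 0 of 130 (0 unadjusted, against 8.89%; DESeq2 0; edgeR background 0.391%). The median standard error of a log2 difference was 0.297 in LAR and 0.312 in TERM for FL vs. HGC. Differences in 1 tissue that are small beside these errors may have been missed, and no detection limit is given here. FL and HGC serve in 2 comparisons each, which are therefore not independent.

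**Figure D4:**
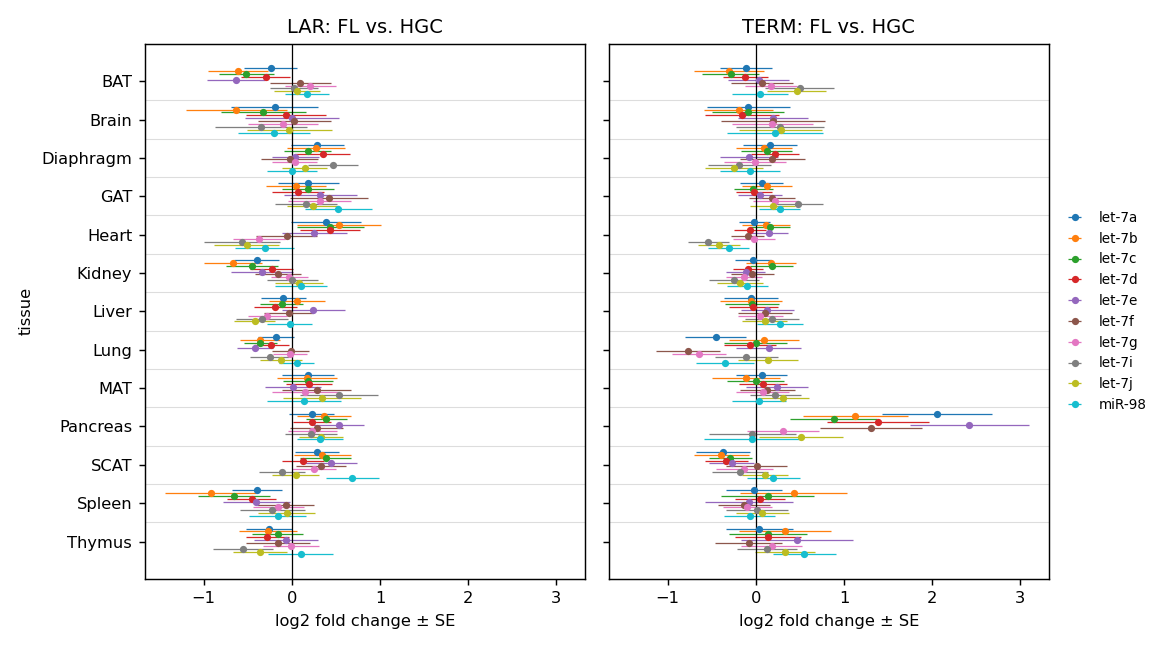
Log2 fold changes (FL vs. HGC, horizontal axis) ± SE of the 10 members in each of the 13 tissues, for LAR (left) and TERM (right), from edgeR with TMM scaling. Members lie within 1 log2 unit of 0 in every tissue of LAR, and only pancreas in TERM reaches beyond 1, up to 2.42 for let-7e; no difference passed the adjusted p of 0.05.

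In the LAR brain, with 4 libraries per arm, all at 3 months, FL had lower medians than VGC for all 10 members. For let-7g, FL libraries ran from 12263 to 25871 CPM with a median of 15212, HGC from 12070 to 23081 with a median of 16308, and VGC from 22052 to 38886 with a median of 27299. FL and VGC overlapped in part, and FL and HGC almost fully. FL vs. VGC gave −1.21 ± 0.40 (adjusted p = 0.233, edgeR) and HGC vs. VGC −1.11 ± 0.40 (adjusted p = 0.376). Over the members the FL vs. VGC median was −1.11, beside −0.11 over all 681 miRNAs tested, and 8 of the 10 had an unadjusted p under 0.05, beside 138 of the 681 (20.3%).

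The largest flight difference lay in the TERM pancreas, with 4 FL, 5 HGC and 2 VGC libraries, all at 3 months. For let-7e, the FL libraries held 568, 1904, 3776 and 10393 CPM and the HGC libraries 444, 609, 711, 1071 and 1404 CPM. For let-7a, FL held 5254, 19359, 54705 and 74399 CPM and HGC 5398, 7829, 10045, 10942 and 16763 CPM. Both sets overlapped at their low end. The log2 differences were 2.42 ± 0.67 for let-7e and 2.05 ± 0.63 for let-7a, with an adjusted p of 0.287 for each in edgeR; DESeq2 called let-7e (adjusted p = 0.0306) and not let-7a (0.0949), and over the alternatives the adjusted p of let-7e ran from 0.00709 to 1.00, the highest being that of a rank-sum test on rpmm.

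The FL library with the highest values of both members, replicate 1, had a profile closest to MAT. It held 75.1 CPM of the acinar marker miR-217, against 8540 to 23461 CPM in the other 10 libraries, and a family share of 43.3%. Without replicate 1 of every arm, let-7e was 1.74 ± 0.60 (adjusted p = 0.619) and let-7a 1.80 ± 0.62. The part of this library's tissue content in the difference was not tested otherwise.

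In the LAR GAT the result turned on the denominator. The family was a median of 32.8% of miRNA counts in FL (20.4% to 46.5%), 32.6% in HGC (22.3% to 45.8%) and 24.6% in VGC (15.5% to 63.2%), with full overlap, and without the 11 pools the medians were 36.0%, 29.0% and 29.1%. Other LAR tissues went either way: in SCAT the medians were 36.6% in FL (27.0% to 53.1%), 27.4% in HGC (9.14% to 41.2%) and 35.1% in VGC (18.6% to 52.3%), and in kidney 27.0% (14.1% to 47.7%), 35.3% (26.5% to 48.3%) and 27.1% (11.7% to 38.6%). The arms overlapped in each, and the shares were not tested between arms. As rpmm the family in GAT was 17428 in FL (7839 to 27670), 5971 in HGC (2089 to 23245) and 6956 in VGC (1313 to 23506), so that FL libraries were mostly higher and still overlapped both controls. The miRNA share of the 7 classes moved with this, at a median of 5.32% in FL, 1.83% in HGC and 2.38% in VGC, as did the tRNA share, at 59.7%, 77.6% and 70.5%.

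For let-7c in this tissue the FL vs. HGC difference was 0.18 ± 0.29 with TMM scaling (adjusted p = 0.923) and 1.25 ± 0.40 scaled to the 7 classes (adjusted p = 0.0263). Scaled to the 7 classes, let-7b, let-7e and miR-98 were called as well, 4 of the 10 members in GAT beside 35.3% of all miRNAs there (4 of 130 over all tissues, background 3.88%). The median over all 479 miRNAs tested in GAT shifted by 1.20 under that scaling and the median over the members by 1.23, 0.03 more. A rank-sum test on rpmm called all 10 members in GAT, where it called 52.8% of all miRNAs, and none elsewhere (4.09% over all tissues). In LAR FL vs. VGC the rank-sum test called 6 members (background 1.01%). A rule on the ratio of medians and Cohen's d, both on rpmm and with no test, marked 11 member and tissue pairs in LAR FL vs. HGC (background 3.47%), 12 in LAR FL vs. VGC (3.26%), 4 in TERM FL vs. HGC (2.1%) and 11 in TERM FL vs. VGC (2.75%).

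Age was compared as 8 vs. 3 months with the arm as a term, in 12 tissues per extraction. In LAR, 0 of 120 tests were called by edgeR (9 of 120 unadjusted, against 10.5% of all miRNA tests; DESeq2 0; edgeR background 0.256%). Without the 11 pools 2 LAR tests were called, both in thymus (let-7b 0.76 ± 0.26 and miR-98 −0.59 ± 0.20), beside 2.34% of all tests over the 12 tissues. With all libraries, 18.5% of all miRNAs in the LAR thymus had an unadjusted p under 0.05 by edgeR. In TERM it was 0 of 120 (8 unadjusted, 6.67% against 15.9%; edgeR background 2.42%), and DESeq2 called 4, against 6.51% of its own tests. The 4 DESeq2 calls were let-7g, let-7i, let-7j and miR-98 in the TERM thymus, each lower at 8 months: edgeR gave let-7i −0.61 ± 0.25 (adjusted p = 0.154) and miR-98 −0.63 ± 0.26 (adjusted p = 0.170). By edgeR 20.9% of all miRNAs in that tissue had an unadjusted p under 0.05, against 15.9% over all tissues. The DESeq2 share within thymus is not given here. In the TERM spleen let-7b was 1.25 ± 0.52 higher at 8 months (adjusted p = 0.233), and 1.58 with an adjusted p of 0.0469 without replicate 16 of every arm. Scaled to the 7 classes, 8 TERM tests were called, all higher at 8 months (background 5.65%, both directions). The shift of all miRNAs under that scaling is not given here. The flight difference was then compared between ages as an interaction. It called 0 of 120 tests in LAR by edgeR (7 unadjusted, 5.83% against 9.59%; DESeq2 0; edgeR background 0.128%) and 0 of 120 in TERM (8 unadjusted, 6.67% against 11.0%; edgeR background 1.39%). DESeq2 called 2 in TERM, against 3.26% of its own tests, and scaled to the 7 classes 9 TERM tests were called, all positive (background 4.29%, both directions).

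The widest interaction values lay in the TERM thymus. For let-7e in the TERM thymus, the FL libraries at 3 months held 1189, 1644, 1831, 1952 and 14290 CPM, those at 8 months 749, 1244, 1435, 1576 and 1867 CPM, and HGC 930, 1095, 2100 and 2436 CPM at 3 months and 1928, 2665, 2723, 3270 and 7767 CPM at 8 months. FL libraries were thus below HGC at 8 months without overlap, and at 3 months 1 FL library, replicate 1, lay far above all others. The interaction was −3.81 ± 1.14 for let-7e, −3.05 ± 0.93 for let-7b and −2.37 ± 0.80 for let-7c, each with an adjusted p of 0.208 in edgeR. DESeq2 called let-7e (0.0255) and let-7b (0.0308). By edgeR 16.9% of all miRNAs in this tissue had an unadjusted p under 0.05 for the interaction. Without replicate 1 of every arm, the 3 values were −1.32 ± 0.77, −1.21 ± 0.60 and −0.99 ± 0.59 (adjusted p = 0.674). In the LAR thymus the same interaction was −1.88 ± 0.59 for let-7e and −1.39 ± 0.45 for let-7c, with adjusted p of 0.280 and 0.333.

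The 2 extractions differ in every arm in days of housing, transport before dissection, anaesthetic mix, collection and tissue preservation. In FL they also differ in days aboard, reentry and recovery. HGC and VGC mice are in both extractions and did not fly, so that a difference within these arms holds no flight or reentry. With TMM scaling, the main filter on low counts and all libraries, TERM vs. LAR, with arm and age as terms, was the only comparison of arms, ages or extractions that called members with edgeR: 9 of 130 tests (5 higher and 4 lower in TERM), against 10.2% of all miRNA tests. An unadjusted p under 0.05 was found for 18 (13.8% against 22.07%), and DESeq2 called 16, against 14.5% of its own tests. Of the 9, 5 lay in pancreas, 3 in thymus and 1 in MAT, the 3 tissues in which most miRNAs were called. Scaled to the 7 classes, 47 tests were called, all lower in TERM (background 25.2%, both directions). Under that scaling the median of all miRNAs also fell in pancreas and thymus, as given below. Scaled to the miRNA total 8 were called, 3 higher and 5 lower (background 10.1%). Without the 11 pools 15 were called, 7 higher and 8 lower (background 14.0%), 6 of them in pancreas, 6 in thymus, 2 in SCAT and 1 in MAT. In HGC and VGC alone, a fit chosen after seeing the data, 7 were called, 2 higher and 5 lower (background 7.36%), 6 in pancreas and 1 in MAT.

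**Figure D5:**
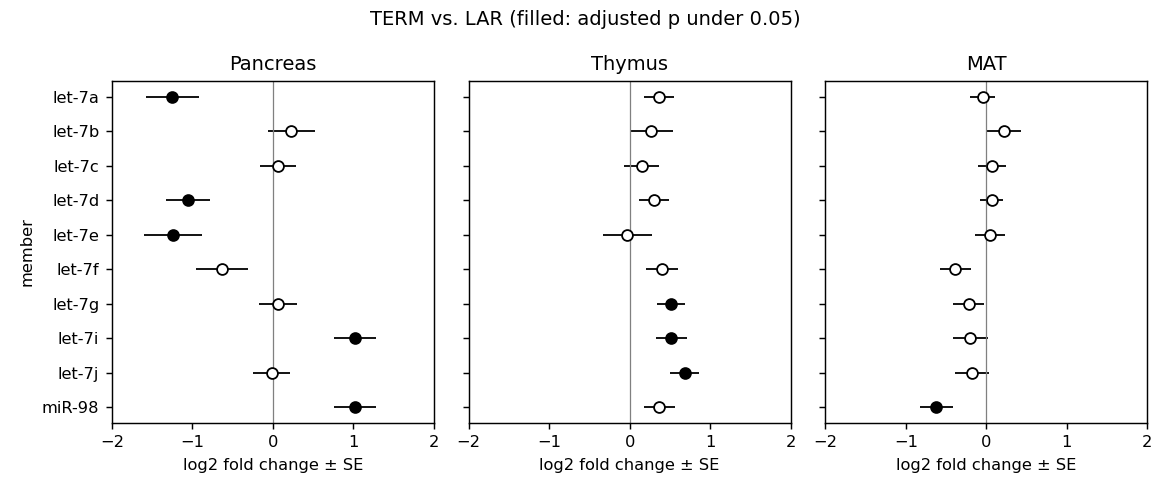
Log2 fold changes (TERM vs. LAR, horizontal axis) ± SE of the 10 members in pancreas, thymus and MAT, from edgeR with TMM scaling; filled points passed the adjusted p of 0.05. In pancreas let-7a, let-7d and let-7e lie below 0 and let-7i and miR-98 above it, in thymus let-7g, let-7i and let-7j lie above 0, and in MAT miR-98 lies below.

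In pancreas the members moved in opposite directions. For let-7a, LAR libraries ran from 19390 to 72346 CPM with a median of 49198 (n = 28) and TERM libraries from 5254 to 74399 with a median of 11176 (n = 11), 9 of the 11 being below the LAR median. For let-7i, LAR ran from 5743 to 22042 CPM with a median of 11880 and TERM from 8229 to 40659 with a median of 24937, 10 of 11 being above the LAR median. The groups overlapped for both strands, and more of the TERM libraries lay on opposite sides for the 2. By edgeR let-7a fell by 1.25 ± 0.33 (adjusted p = 0.00328), let-7d by 1.06 ± 0.27 (0.00282) and let-7e by 1.24 ± 0.36 (0.00798), while let-7i rose by 1.02 ± 0.27 (0.00303) and miR-98 by 1.02 ± 0.26 (0.00264), 5 of 10 members beside 37.3% of all miRNAs tested in pancreas (15.6% higher and 21.7% lower).

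The composition, which needs no scaling, showed the same split. The share of let-7a in the family was 21.7% in LAR (13.1% to 23.7%) and 7.17% in TERM (4.59% to 18.7%), and that of let-7d 8.15% (6.97% to 10.4%) and 4.28% (2.52% to 6.55%), the latter without overlap. The share of let-7i was 5.06% in LAR (2.82% to 7.29%) and 12.3% in TERM (6.05% to 25.8%), and that of let-7c 24.3% and 29.8%. All TERM pancreas libraries came from mice of 3 months, and against the 15 LAR libraries of that age the medians in CPM were 11176 and 47458 for let-7a and 24937 and 11515 for let-7i.

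The pancreas difference was present without FL. In HGC and VGC alone, let-7a ran from 22671 to 72346 CPM in LAR (n = 18) and from 5398 to 18933 CPM in TERM (n = 7), without overlap. There let-7a fell by 1.96 ± 0.26 (adjusted p = 3.88e-06), let-7d by 1.51 ± 0.26 (6.25e-05), let-7e by 2.06 ± 0.28 (5.39e-06) and let-7f by 1.15 ± 0.32 (0.00461) by edgeR, and let-7i and miR-98 rose by 1.16 ± 0.34 (0.00808) and 1.15 ± 0.34 (0.00810), 6 of 10 members beside 49.0% of all miRNAs tested. Within these arms, days of housing, transport, anaesthetic, collection and preservation cannot be told apart.

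Other features of these libraries moved with the extraction. Family share was a median of 24.7% in LAR and 18.6% in TERM, miRNAs were 2.36% and 0.928% of the 7 classes, and the liver marker miR-122 had medians of 682 and 3372 CPM, while of the acinar markers miR-217 had 13646 and 13291 CPM and miR-216a 12847 and 23072 CPM. The blood cell miRNAs miR-150 and miR-142a had medians of 2992 and 1018 CPM in LAR and 1090 and 546 CPM in TERM. Scaled to the 7 classes the median of all 405 miRNAs shifted by −1.46, let-7i and miR-98 were at −0.09 and 0.14 and not called, and let-7a was at −2.30. With the replicate number as a block, let-7e, let-7i and miR-98 were not called (adjusted p = 0.0609, 0.0576 and 0.148). The part of these features in the result was not tested.

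In thymus 3 members rose in TERM. LAR libraries held 391 to 1872 CPM of let-7j with a median of 745 (n = 30) and TERM libraries 311 to 2693 with a median of 1152 (n = 28), 24 of 28 being above the LAR median and the ranges overlapping. The differences were 0.68 ± 0.18 for let-7j (adjusted p = 0.00650), 0.51 ± 0.17 for let-7g (0.0249) and 0.52 ± 0.19 for let-7i (0.0404), 3 of 10 members beside 21.5% of all miRNAs tested there (8.15% higher and 13.3% lower). Scaled to the 7 classes the 3 values were 0.12, −0.01 and −0.01, where the median of all 577 miRNAs shifted by −0.49, and none was called. Scaled to the miRNA total, let-7g and let-7i were not called (adjusted p = 0.0748 and 0.132), and with the replicate number as a block let-7i was not (0.0681). In HGC and VGC alone none of the 3 was called: let-7j was at 0.42 ± 0.16 (adjusted p = 0.199), let-7g at 0.42 ± 0.18 (0.234) and let-7i at 0.27 ± 0.19 (0.520), where 1.43% of all miRNAs were called. The difference between FL and the ground arms was not tested.

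For let-7e in thymus, 24 of 28 TERM libraries were below the LAR median (medians 1849 and 2813 CPM), yet the fit gave −0.03 ± 0.31 (adjusted p = 0.957). Without the 11 pools, which held the library at 14290 CPM, it was −0.61 with an adjusted p of 0.0125. The blood cell miRNA miR-150 had medians of 15815 CPM in LAR and 8177 in TERM thymus and miR-451a, from red cells, of 36755 and 19413 CPM, whereas miR-142a, also of blood cells, had 6601 and 10136 CPM; their part in the result was not tested.

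In MAT, miR-98 fell by 0.62 ± 0.20 in TERM (adjusted p = 0.00989), 1 of 10 members beside 48.1% of all miRNAs tested (27.7% higher and 20.4% lower). LAR libraries ran from 338 to 3144 CPM with a median of 1388 (n = 28) and TERM libraries from 236 to 1931 with a median of 947 (n = 29), 25 of 29 being below the LAR median. The value passed the test under each of 8 alternatives, and in HGC and VGC alone it was −0.74 ± 0.26 (adjusted p = 0.0191). The label of this tissue is the least secure: 22 of 28 LAR and 21 of 29 TERM libraries had profiles closest to another tissue, the acinar marker miR-217 had medians of 5780 CPM in LAR and 29.2 CPM in TERM, and miR-150 of 3304 and 56372 CPM. The part of pancreatic and lymphoid tissue in the MAT value was not tested.

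Of 136 tests on the opposite strands, 4 were higher in TERM and 0 lower, 2.94% beside the background of 10.2%, among them let-7d-3p in MAT (1.34 ± 0.23) and let-7i-3p in pancreas (0.68 ± 0.27). Of 142 tests on the miR-99, miR-100 and miR-125 strands, 7 were higher and 8 lower, 10.6% beside the same background. In pancreas, 5 companion 5p strands fell, from 0.98 ± 0.27 for miR-99a-5p to 1.63 ± 0.39 for miR-125a-5p, and 2 companion 3p strands rose, miR-99a-3p by 1.69 ± 0.40 and miR-125b-2-3p by 0.80 ± 0.29. In MAT, miR-100-5p (0.75 ± 0.20), miR-125a-5p (0.77 ± 0.26), miR-125b-5p (0.69 ± 0.24) and miR-99b-5p (0.83 ± 0.32) rose, and miR-125b-2-3p (−0.89 ± 0.21) and miR-99a-3p (−1.21 ± 0.27) fell. Of all miRNAs tested, 37.3% were called in pancreas and 48.1% in MAT. In the 6 comparisons of arms, 0 tests of either list were called by edgeR, beside 0.187% to 1.67% of all miRNA tests. Under an unadjusted p of 0.05 were 4 to 8 of 139 or 140 opposite strand tests and 3 to 12 of 142 companion tests. Over all miRNA tests that share was 8.89% to 12.2%. In TERM, the age comparison called miR-99a-3p lower at 8 months in MAT (−1.50 ± 0.40), 1 of 132 companion tests (0.758% beside 2.42% of all; 21 unadjusted) and 0 of 130 opposite strand tests (4 unadjusted). The flight by age interaction called let-7f-1-3p (1.57 ± 0.48) and miR-99a-3p (2.49 ± 0.64) in heart, 1 of 133 opposite strand tests (0.752%; 16 unadjusted) and 1 of 132 companion tests (0.758%; 13 unadjusted) beside 1.39% of all. The corresponding LAR comparisons called 0 of 124 to 131 tests of either list by edgeR, with 4 to 10 unadjusted. Of all miRNA tests, 0.256% were called for age in LAR and 0.128% for the interaction. The unadjusted share of all was 10.5% for age and 9.59% for the interaction in LAR, and 15.9% and 11.0% in TERM.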

How the data were processed

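Small RNA libraries were processed by the authors with miRMaster 2.0 against GRCm39 and miRBase 22.1. The deposited miRNA table holds estimated counts per mature strand, of which 0.790% were fractional, and the deposited tables of the other 6 RNA classes hold whole read counts. Estimated counts were rounded for count tests. CPM were computed on the miRNA total and rpmm on the total of 7 classes (9.15 M to 428 M counts per library; M, 1000000). Tests used edgeR 4.0.16 (R 4.3.3) quasi-likelihood fits with TMM factors and filterByExpr, per tissue and extraction for arms, age (arm as a term) and flight by age, per tissue for TERM vs. LAR (arm and age as terms), and over all libraries for tissue pairs. Benjamini-Hochberg adjustment ran over all miRNAs tested, with a threshold of 0.05. DESeq2 1.42.0 and limma 3.58.1 served as alternatives, with other scalings, filters, a rank-sum test, a rule on medians and Cohen's d, plate or replicate number as terms, TERM vs. LAR in HGC and VGC alone, and single replicates left out. Fits were tested on simulated data. Summaries used Python 3.11.15 with pandas 2.3.3, numpy 2.4.6 and matplotlib 3.10.9.

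Libraries came from 83 mice, and groups were taken from the sample labels. Pool (44 in all) and plate (8) were copied from the study's sample sheet, matched by library name. Same-numbered libraries of different arms came from different mice, and of 653 such pairs 266 correlated over 0.1 (median 0.028, against 0.025 for other numbers), so that numbers do not pair arms, whereas tissues of 1 mouse are paired. Coordinates and sequences came from RefSeq tables of GRCm38.p6, and were not mixed with the GRCm39 counts. Text names all 10 members, their 12 opposite strands, 11 miRNAs of the same transcripts, strands that share the seed, and the 5 other miRNAs with the highest Pearson r to the family over 13 tissue medians of log2(CPM + 1). The members and lists were chosen with earlier results of these data known.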

Additional observations from a re-analysis of the deposited data

Results flagged for a closer look

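In 6 of 77 groups of 4 to 10 libraries, 1 library stood far above the others in its family share of miRNA counts by Dixon's test at the 95% level. Chance alone flags about 1 in 20 groups. In the TERM diaphragm, HGC replicate 1 had a share of 45.3% (next 29.3%), and its profile without the members was closest to thymus. In the LAR heart, HGC replicate 8 had 30.4% (next 16.0%), with a profile closest to lung, and in the LAR liver, VGC replicate 14 had 30.1% (next 20.0%), with a profile closest to kidney. The other 3 had profiles closest to their own label: GAT LAR VGC replicate 16 at 63.2% (next 36.9%), kidney LAR HGC replicate 13 at 48.3% (next 38.0%) and thymus TERM FL replicate 1 at 50.6% (next 28.1%). The diaphragm, heart, liver and thymus libraries belonged to the 11 pools left out in the alternative. The leading member was let-7c in all 6, with 23.7% to 32.4% of family counts.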

How the results depend on the processing

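Scaled to the 7 RNA classes, the count moved from 0 to 4 in LAR FL vs. HGC, 1 in LAR FL vs. VGC (1.33% of all miRNA tests), 1 in LAR flight by age (2.19%), 2 in TERM FL vs. HGC (0.753%), 8 in TERM 8 vs. 3 months and 9 in TERM flight by age, and from 9 to 47 in TERM vs. LAR. Scaled to the miRNA total, TERM 8 vs. 3 months gave 1 (2.29%). DESeq2 gave 1 in TERM FL vs. HGC, 4 in TERM 8 vs. 3 months, 2 in TERM flight by age and 16 in TERM vs. LAR, where it called 1.48%, 6.51%, 3.26% and 14.5% of all miRNA tests. A rank-sum test on rpmm gave 10 in LAR FL vs. HGC and 6 in LAR FL vs. VGC, and a rule on medians and Cohen's d gave 11 and 12, with 4 in TERM FL vs. HGC and 11 in TERM FL vs. VGC. Without a filter on low counts TERM FL vs. HGC gave 1 (0.230% of all), and with a filter of at least 5 reads in 10% of any tissue and arm, 2 (0.305%). Without the 11 pools LAR 8 vs. 3 months gave 2 (2.34% of all) and TERM vs. LAR 15 (14.0%), 12 to 38 of 90 to 130 member values per comparison changed sign, and of 502 called tissue pairs 15 had the other sign, 1 of them called. The causes of these moves were not tested.

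With the replicate number as a block, TERM vs. LAR gave 5 (7.61% of all) and the 6 arm comparisons 0. With the mouse as a block in limma-voom, tissue pairs gave 502. Limma-voom without the mouse, a fit added once results were known, gave 519. Plate as a term gave 11 in TERM vs. LAR (5 higher and 6 lower), beside 11.5% of all miRNA tests. HGC and VGC alone, also chosen after seeing the data, gave 7 there (7.36%), with the 3 thymus calls lost. Leaving out each replicate number in turn was run for the 10 comparisons of arms, ages and flight by age, and not for TERM vs. LAR or tissue pairs, and counts ranged from 0 to 0 in 9 comparisons and from 0 to 1 in TERM 8 vs. 3 months, the 1 being let-7b in spleen without replicate 16. Values of members often changed sign when scaled to the 7 classes, in 22 to 42 of 120 or 130 tests per comparison. These counts cover all member tests, among them some called under TMM scaling in TERM vs. LAR.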
